A study of Marchantia polymorpha with 78 samples.

Results

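Thalli of the liverwort Marchantia polymorpha that had spent 24 h in white light after a dark day were compared with thalli kept in darkness for the same 24 h. The comparison uses 6 of the series' 78 libraries, 3 for each condition, chosen by their labels alone. It covers the 13054 genes, of 19355 in the table, that reached 1 TPM (transcripts scaled to the same total in every library, corrected for transcript length) in at least 3 of all libraries. All plants were Tak-1, a male wild-type line. Gemmae had been raised on agar medium with 1% sucrose at 23 °C under white light that stayed on for 8 days, and a dark period of 24 h followed. At that point, time zero, plates either stayed in darkness or moved to white light of 50 to 60 µmol m⁻² s⁻¹. Sampling was at 30, 60 and 180 min and at 12 and 24 h, and red, blue and far-red light were run alongside. Poly(A) RNA was sequenced, and each library pooled 3 thalli. Plates carried 3 replicates each, so an effect of the plate and an effect of the light cannot be told apart. The dark group had by then been in darkness for 24 h before time zero and 24 h after it, on medium with sugar.

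In land plants, light acts on gene expression through photoreceptors (phytochromes for red and far-red light, cryptochromes and phototropins for blue light, UVR8 for ultraviolet) and through photosynthesis and the sugars and redox signals it yields. Marchantia has a small set of these receptors, with 1 phytochrome gene and 1 cryptochrome gene tested here. A thallus moved from darkness to light is known to resume chlorophyll synthesis, growth at its apical notches and the production of phenolic compounds. In whole thalli, a lower value can mean fewer cells of a type or less RNA per cell, and these cannot be told apart.

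White light and darkness differed in 3423 genes at 24 h, which is 26.2% of those tested (limma, Benjamini-Hochberg adjusted p under 0.05 and a log2 change of at least 1 in size, the rule for a call throughout). Of these, 1899 (14.5%) were higher in white light and 1524 (11.7%) were lower; below, a rise or a fall is a called difference in that sense unless another reference is named. Without the fold threshold, 10233 genes (78.4%) had an adjusted p under 0.05, and the median SE of a log2 change was 0.089. The median log2 change over all genes tested was 0.042, and 90% of genes lay between −1.56 and 1.84. Changes of at least 2 were called in 527 genes upward and 351 downward, and of at least 4 in 37 upward and 46 downward. By construction the risen genes took a larger share of the library in light, 28.96% ± 0.0772 of all TPM against 7.889% ± 0.0499 in darkness and 11.61% ± 0.0612 at time zero (SD, n = 3). The fallen genes went from 19.67% ± 0.148 of TPM in darkness to 5.912% ± 0.0188 in white light. The excess of rises over falls depended on the scaling between libraries. With TMM factors (trimmed mean scaling) the split was 1761 rises to 1669 falls, and with quantile normalization 1717 to 1679.

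**Figure D1:**
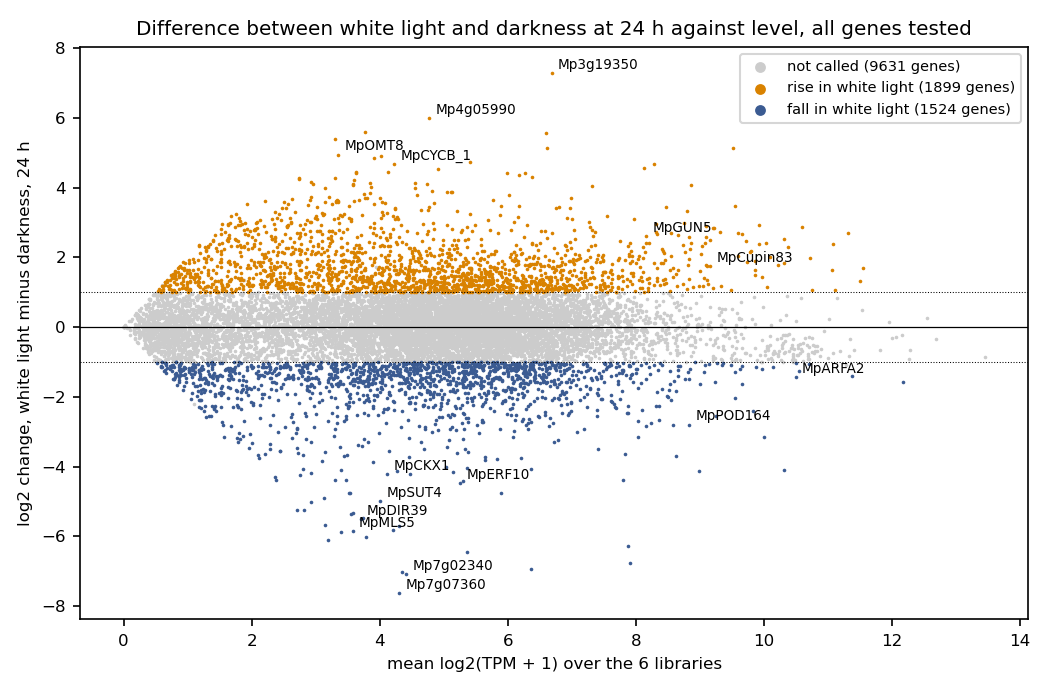
Each point is 1 of the 13054 genes tested. The horizontal axis is the mean log2(TPM + 1) over the 3 white light and 3 dark libraries, the vertical axis the log2 change, and dotted lines mark a change of 1 in each direction. Orange and blue points are the 1899 rises and 1524 falls, found at every level; the narrowing toward the left follows from the pseudocount of 1.

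Replicates lay close together. Correlations across genes were 0.9956 to 0.9965 within the white light group and 0.9945 to 0.9953 within the dark group, and genes are not independent replicates. On the first principal component, which held 56.7% of the variance of all 78 libraries, the white light libraries sat at 65.5 to 66.1 and the dark ones at −46.5 to −45.6. Between 11946 and 12012 genes per library reached 1 TPM in white light and between 11976 and 11994 in darkness. Depth is unknown, since TPM keeps no read counts. Of the male V chromosome 46 genes were tested; 0 of these rose and 1 fell, against 25.2% to 28.7% called on the 8 autosomes.

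The largest rises among genes with a symbol were in a methyltransferase, P450 enzymes, polyphenol oxidases, mitotic regulators and histones. MpOMT8 (Mp2g07390), an O-methyltransferase gene, stood at 51.4, 58.8 and 56.9 TPM in the white light libraries and at 1.43, 0.662 and 0.51 in the dark ones, a log2 change of 4.95 (SE 0.17; limma adjusted p = 6.6e-36). MpPPO71 (Mp5g20040), a polyphenol oxidase that would oxidise phenols to quinones, was at 145.6, 148.4 and 139.5 TPM against 5.0, 4.46 and 6.51 (4.54, SE 0.10). MpCYP827A1 (Mp5g12720), a cytochrome P450 gene, was at 49.5, 48.4 and 48.8 TPM against 2.57, 1.77 and 1.46 (4.11, SE 0.16). In all 10 genes of this kind the lowest white light library was far above the highest dark one. The other 7 were MpCYP704-like5 (4.86), MpCYCB_1 (4.68), MpCDKB (4.14), MpH3.1a (4.14), MpH3.1e (4.12), MpH3.1d (4.11) and MpPPO17 (4.03). Called genes were picked by their difference in these same libraries, so a lack of overlap, here and below, is description and no further support. The share of all genes tested that separate in this way was not counted. The H3.1 genes are near-identical copies, and how reads shared between copies were assigned is not given in the sources used here, so values for single copies are uncertain.

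The largest falls among genes with a symbol took in genes for protective (LEA and dehydrin) proteins and a gene named as a sucrose transporter. An ERF family gene, a protein phosphatase 2C gene and a cytokinin oxidase gene were also among them. MpSUT4 (Mp7g14140), named as a sucrose transporter, was at 1.69, 2.07 and 1.86 TPM in white light and at 78.2, 96.9 and 94.9 in darkness (log2 −4.98, SE 0.14; limma adjusted p = 2e-40). MpERF10 (Mp7g00860), an ethylene response factor family gene, was at 5.94, 7.41 and 8.02 TPM against 181.8, 175.2 and 179.2 (−4.48, SE 0.11). MpPP2C_F3 (Mp4g14730), a protein phosphatase 2C, was at 4.88, 4.85 and 2.99 TPM against 92.5, 99.5 and 93.4 (−4.22, SE 0.10). Light and dark libraries did not overlap in these or in the other 7 genes, MpMLS5 (−5.85), MpDIR39 (−5.52), MpLEA-like12 (−5.47), MpDHN1 (−5.36), MpLEA-like14 (−5.34), MpLEAL7 (−5.26) and MpCKX1 (−4.21). Genes with no symbol went further still. Mp3g19350 was at 1173.6, 1183.5 and 1533.9 TPM in light against 5.7, 7.39 and 8.83 (7.29, SE 0.25), and Mp4g05990 rose by 5.99 (SE 0.13). Mp7g07360 fell by 7.63 (SE 0.14), to between 0.357 and 0.488 TPM from 265.7 to 289.8, and Mp7g02340 fell by 7.08 (SE 0.15).

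**Figure D2:**
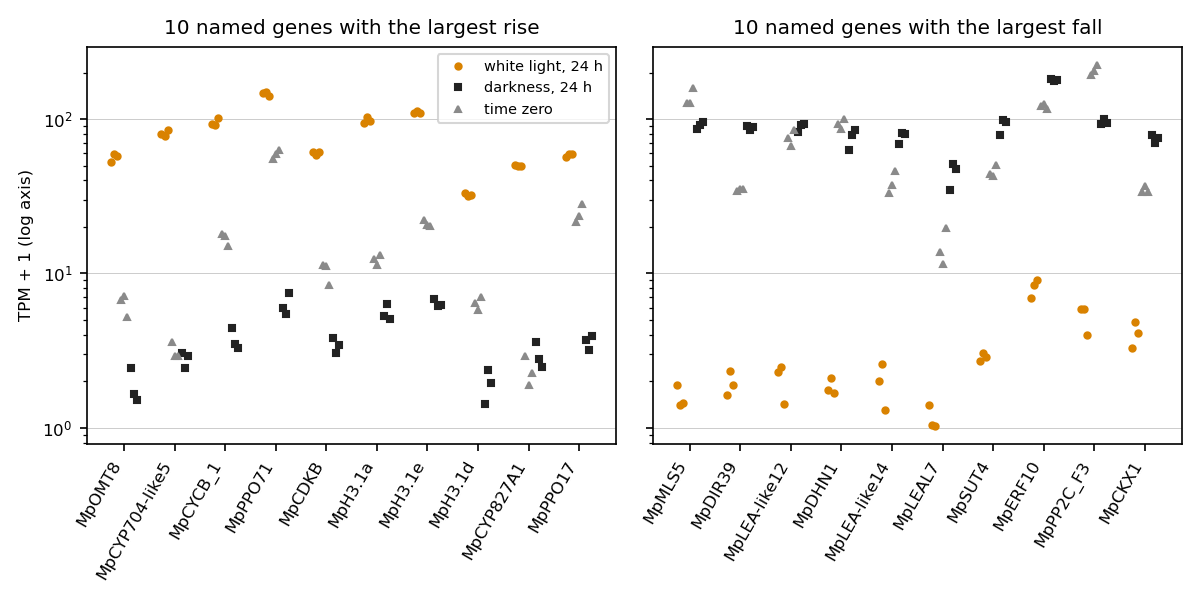
TPM + 1 on a log axis in each library of white light at 24 h (orange circles), darkness at 24 h (black squares) and time zero (grey triangles), for the 10 genes with a symbol that rose most and the 10 that fell most. Time zero lies between the other conditions for MpCYCB_1, MpPPO71 and the H3.1 genes, beside darkness for MpCYP704-like5 and MpLEA-like12, and above darkness for MpMLS5 and MpPP2C_F3.

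Ranked by TPM gained or lost among genes with a symbol, abundant genes came to the front. MpCupin83 (Mp5g13860), a cupin gene, had the largest gain of these, at 1067.5, 962.7 and 1113.9 TPM against 292.7, 323.2 and 313.3 (log2 1.75, SE 0.08). MpGUN5 (2.61), MpCSD (1.35), the chaperone gene MpHSP90-1 (1.18) and the fatty acid desaturase gene MpFAD11 (2.41) followed. The largest loss in a gene with a symbol was that of MpARFA2 (Mp3g13920), at 903.5, 847.0 and 889.1 TPM in light against 2398.6, 2319.5 and 2384.2 in darkness (−1.43, SE 0.05). MpPOD164, a class III peroxidase gene, fell from 1155.9, 1227.0 and 1226.2 TPM to 168.2, 184.3 and 165.2 (−2.80, SE 0.06). MpGH92 (−1.64), MpR2R3-MYB9 (−2.37) and MpGST9 (−1.50) completed the 5 largest losses among genes with a symbol.

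Magnesium chelatase puts magnesium into the porphyrin ring at the branch point between haem and chlorophyll, and the 3 subunit genes measured all rose in light. MpGUN5, the H subunit by its Arabidopsis name, was at 678.5, 685.1 and 757.0 TPM in white light and at 119.3, 106.8 and 119.3 in darkness (2.61, SE 0.07). MpCHLD rose by 2.07 (SE 0.06) and MpCHLI1/2-like by 1.99 (SE 0.04). The other 3 of 6 listed genes were not called: MpGUN4, which activates the chelatase, differed by 0.79, the haem oxygenase gene MpHY1 by 0.68 and the ferrochelatase gene MpFC2 by 0.12. In the carotenoid and plastid isoprenoid list 4 of 18 tested genes rose and 1 fell, or 27.8% called, near the 26.2% of all genes. MpHDR, which acts last in the plastid pathway to isoprenoid precursors, rose by 1.76 and MpABA1, the zeaxanthin epoxidase gene, by 1.89, with MpDXR1 and MpCMK at 1.5 each. MpABA4, needed for neoxanthin in Arabidopsis, fell by 1.65.

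Other plastid-related genes split. MpFBA4 (Mp2g02260), 1 of 4 fructose-bisphosphate aldolase genes by name, was at 215.1, 210.2 and 217.3 TPM in light against 22.9, 23.8 and 22.2 (3.17, SE 0.06), with no overlap. The remaining aldolase genes differed by −0.31, −0.31 and 0.22 and were not called, although MpFBA2 was the most abundant of them at 3678.9 TPM in light and 4578.8 in darkness. MpRBCS, a small subunit gene of Rubisco, was at 209.5, 203.9 and 212.1 TPM against 123.6, 127.2 and 120.7, a difference of 0.75 that stayed under the fold threshold. MpSIG5, a sigma factor that directs the plastid RNA polymerase and responds to light in Arabidopsis, rose by 1.99 (SE 0.10), from between 5.74 and 6.80 TPM to between 26.5 and 28.6. It was the only call among 8 sigma factor and alternative electron flow genes (12.5%), which include flavodiiron proteins and terminal oxidases.

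Many division genes were higher in light than in darkness. Over all genes tested 14.5% rose and 11.7% fell, and the median log2 change was 0.042. Of 26 histone genes tested 16 rose and 1 fell, with a median log2 change of 1.22, and of 20 genes for replication licensing and chromosome structure 11 rose and 0 fell, with a median of 1.78. Of 23 cell cycle regulators tested, of 33 listed, 9 rose and 1 fell. MpCDKB (Mp5g19170), the plant-specific kinase of mitotic entry, was at 59.9, 57.8 and 60.6 TPM against 2.8, 2.06 and 2.45 (4.14, SE 0.11). MpCYCA, an A-type cyclin gene, was at 32.7, 36.2 and 35.5 TPM against 2.44, 2.39 and 1.15 (3.61), and MpCYCD_1, a D-type cyclin gene, at 65.8, 69.8 and 71.1 against 8.18, 11.0 and 9.0 (2.76). None of these groups overlapped. MpMCM6, part of the helicase that opens replication origins, rose by 3.03 (SE 0.15) and MpSMC2, a condensin subunit, by 2.63 (SE 0.12).

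Not every gene of the cycle took part. MpCDKA, the kinase used through the whole cycle, differed by −0.01, MpE2F by 0.19, its inhibitor gene MpRBR by −0.45 and the CDK inhibitor gene MpKRP by −0.16, none of them called. The replacement histone genes MpH3.3a (−0.18) and MpH3.3b (−0.38) were not called, while MpH3.1a, MpH3.1c, MpH3.1d and MpH3.1e rose by 3.99 to 4.14 and MpH3.1b by 1.28. MpH2A.X.2 fell by 1.96 (SE 0.09), from 24.2, 26.2 and 29.2 TPM in darkness to 5.64, 6.73 and 5.87. MpSKP2A, an F-box gene whose Arabidopsis counterpart removes division factors, fell by 1.63 (SE 0.08).

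Genes for secreted proteins that act on the cell wall often rose, to be set against 14.5% of all genes higher and 11.7% lower. Of 36 expansin and expansin-like genes tested 11 rose and 4 fell, and all 11 rises carried expansin names while all 4 falls carried expansin-like (EXL) names. MpExpansin15 (Mp3g03930), of the family that loosens walls, was at 409.7, 414.5 and 406.1 TPM in light against 32.6, 40.8 and 39.9 (3.41, SE 0.08). MpEXL3 (Mp7g19240) was at 19.4, 18.7 and 18.9 TPM against 276.7, 249.7 and 280.9 (−3.75, SE 0.07). MpExpansin32 (3.12) and MpEXL6 (−2.45) were next in each direction. Pectin was represented by 16 tested lyase and esterase genes, of which 7 rose and 0 fell, led by the pectate lyase gene MpPL1.3, at 246.9, 234.9 and 241.5 TPM against 17.4, 14.8 and 16.9 (3.80, SE 0.09), and the pectin methylesterase gene MpCE8.10 (2.94, SE 0.07).

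Among 100 glycoside hydrolase genes tested 30 rose and 13 fell. Over all genes 14.5% rose and 11.7% fell, so the falls were near the share of all genes. MpGH17.15, of the family that holds β-1,3-glucanases, rose by 2.95, and MpGH35.3, of a β-galactosidase family, by 2.69. The falls were led by the chitinase family genes MpGH19.3 (−3.38, SE 0.27) and MpGH19.8 (−2.65, SE 0.17). MpGH19.3 varied most in darkness, with 58.1, 27.4 and 39.9 TPM, all above the 2.79, 4.49 and 1.95 in light. Of 10 cellulose synthase-like D genes 3 rose, among them MpCSLD6 (2.85) and MpCSLD5 (1.36), and MpCSLD3, the most abundant at 831.6, 778.8 and 832.1 TPM in darkness, fell by 1.04.

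Enzymes of phenolic metabolism gave rises and falls within each family, to be set against 14.5% of all genes higher and 11.7% lower. Class III peroxidases, which oxidise phenols outside the cell, had 116 of 164 genes tested, and 45 rose and 10 fell, with a median of 0.76. MpPOD99 rose by 3.68 (SE 0.18) and MpPOD126 by 3.19 (SE 0.16), and MpPOD143 fell by 2.87 (SE 0.11). Of 36 polyphenol oxidases tested, of 57 listed, 14 rose and 6 fell (3 without replicate 2 of both groups). MpPPO17 was at 56.2, 58.3 and 58.5 TPM against 2.69, 2.2 and 2.96 (4.03, SE 0.10), and MpPPO32 at 8.49, 9.59 and 7.48 against 66.5, 72.4 and 75.8 (−2.93, SE 0.10). Dirigent proteins, which steer the coupling of phenolic radicals, split into 9 rises and 8 falls of 42, from MpDIR2 at 2.73 and MpDIR27 at 2.53 to MpDIR5 at −2.92 and MpDIR39 at −5.52.

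Upstream phenylpropanoid and flavonoid genes were called at about the background, 27.3% of 66 against 26.2% of all genes, with 11 rises and 7 falls. MpPAL8, a phenylalanine ammonia-lyase gene for the entry step, fell from 512.0, 553.0 and 568.9 TPM to 99.0, 103.4 and 91.1 (−2.47, SE 0.09). Chalcone synthase family genes went both ways, MpPKS/CHS17 rising by 2.94 and MpPKS/CHS16 falling by 2.41, and MpLAR-like5 rose by 2.60. Of 11 O-methyltransferases 3 rose, with MpOMT19 at 3.74 beside MpOMT8, and 2 fell, MpOMT16 by 2.09 and MpOMT24 by 1.07; without replicate 2 of white light MpOMT24 was at −0.99 and 1 fall was left. Terpene synthases had 5 rises and 3 falls of 15 tested, from MpMTPSL-like (2.78) and MpMTPSL8 (2.44) to MpMTPSL5 (−1.51) and MpTPS5 (−2.06).

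Families that modify small molecules had mostly rises among their calls. The shares over all genes were 14.5% higher, 11.7% lower and 26.2% called. Cytochromes P450 had 26 rises and 5 falls of 85, and MpCYP759B1 fell by 1.99. The DOXC class of 2-oxoglutarate dioxygenases had 12 rises and 4 falls of 27, with MpDOXC15 at 2.96, MpDOXC31 at 2.82, MpDOXC30 at −1.54 and MpDOXC3 at −2.29. UDP-glycosyltransferases had 13 rises and 1 fall of 30, with MpUGT35 at 2.43 and MpUGT5 at 2.32, and MpUGT23 at −1.41. Glutathione S-transferases, with 4 rises and 2 falls of 32, were called in 18.8%; MpGST33 rose by 2.77 and MpGST17 by 2.18, and MpGST23 fell by 1.48.

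**Figure D3:**
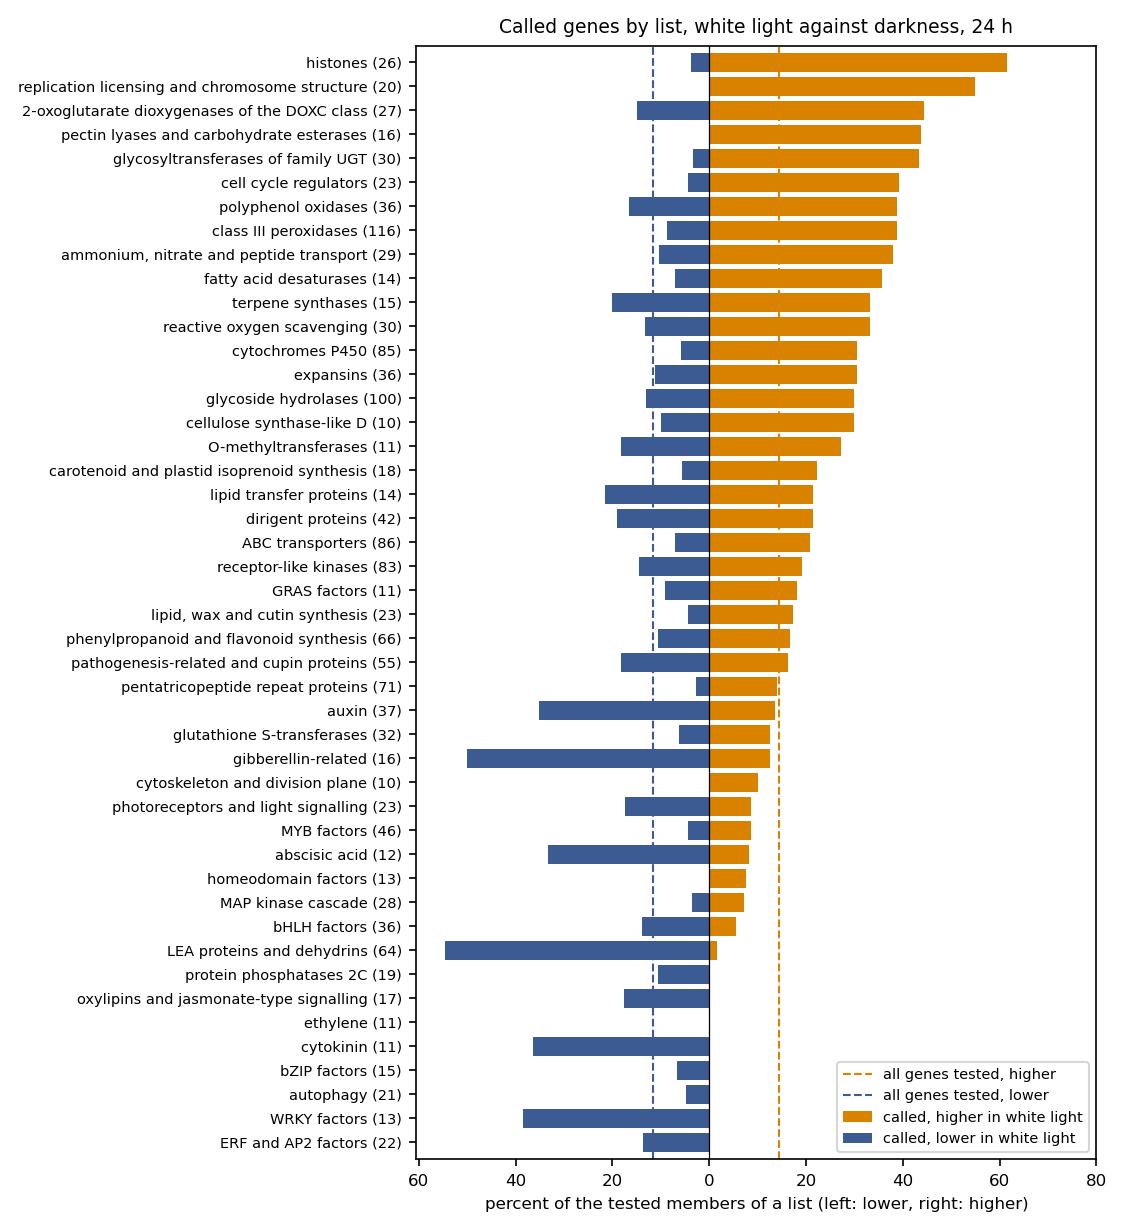
Bars give the percent of the tested members of each gene list with at least 10 tested genes (number in brackets) that were called higher in white light (orange, right) or lower (blue, left) at 24 h. Dashed lines mark the shares over all genes tested, 14.5% and 11.7%. Histones, replication genes, pectin enzymes, peroxidases and polyphenol oxidases lie well right of the orange line, and the LEA, gibberellin-related, WRKY, cytokinin and auxin lists reach well left of the blue one.

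Of 23 tested genes for long-chain lipids, wax and cutin 4 rose and 1 fell, or 21.7% called, under the 26.2% of all genes. MpELO2, a fatty acid elongase gene, was at 57.9, 51.6 and 53.6 TPM against 5.28, 4.56 and 6.62 (3.10, SE 0.13). MpCER3a (2.35) and MpCER1 (2.08) are named for the Arabidopsis pair that makes wax alkanes, and MpCUS (2.26) for the cutin synthase that joins cutin monomers. MpCER5, the ABC transporter named for wax export in Arabidopsis, fell by 1.06. Fatty acid desaturases gave 5 rises of 14, with MpFAD11 at 551.8, 534.4 and 569.2 TPM against 108.1, 98.3 and 102.9 (2.41, SE 0.05) and MpFAD9 at 1.76, and 1 fall, MpFAD13 (−1.51), or 2 falls with TMM factors (trimmed mean scaling between libraries). Lipid transfer proteins gave 3 rises and 3 falls of 14. MpLTP-like65 fell most, from 200.5, 153.1 and 152.4 TPM in darkness to 8.03, 8.36 and 11.3 (−4.06, SE 0.14), and MpLTP-like68 fell by 1.19; MpLTPG1 (1.93) and MpLTP-like63 (1.30) rose.

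Of 23 photoreceptor and light signalling genes 2 rose and 4 fell, a share of 26.1% that equals the background, and the falls include receptor genes themselves. MpCRY (Mp2g17590), the cryptochrome gene, was at 91.7, 89.5 and 92.4 TPM in light against 331.3, 299.8 and 311.2 (−1.77, SE 0.08). MpFHY1 (Mp2g16500), whose Arabidopsis counterpart carries phytochrome A into the nucleus, was at 14.7, 14.5 and 14.6 TPM against 71.3, 70.3 and 67.0 (−2.18, SE 0.09). MpPHY, the phytochrome gene, was at 131.9, 135.0 and 164.3 TPM against 368.9, 314.9 and 330.8 (−1.23, SE 0.12), and MpNPH3, named for a partner of phototropin, fell by 1.20; these last 2 were named after their values were seen. The light and dark libraries of all 4 were apart. MpPHOT (−0.63) and MpUVR8 (−0.11) were not called, nor were MpCOP1 (−0.52) and MpSPA1 (0.21), which mark light signalling factors for breakdown.

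The rises on that list were MpRUP, whose product restrains UVR8, at 23.2, 18.7 and 20.6 TPM against 7.27, 8.57 and 7.3 (1.32, SE 0.09), and the B-box gene MpBBX3 (1.25, SE 0.15). Of 7 clock genes 1 was called (14.3%, against 26.2% of all genes). MpELF3, an evening complex gene, was at 152.5, 160.4 and 187.4 TPM against 50.2, 49.4 and 47.2 (1.74, SE 0.07). The remaining clock genes gave MpGI 0.11, MpELF4 0.01, MpPRR −0.16, Mp1R-MYB11 −0.44, MpTOC1 −0.73 and MpGARP7 −0.98. MpGARP7 passed the fold threshold at −1.04 with TMM factors, at −1.02 without replicate 3 of white light and at −1.0 without replicate 3 of darkness.

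Many genes for proteins of dry tissues were lower in light. LEA proteins and dehydrins shield cells against water loss. Of 64 tested, of 72 listed, 35 fell and 1 rose, with a median of −1.34. Among all genes tested 11.7% fell and 14.5% rose, with a median of 0.042. MpDHN1 (Mp6g07540), a dehydrin gene, was at 0.763, 1.09 and 0.688 TPM in light and at 62.4, 77.7 and 84.5 in darkness (−5.36, SE 0.16). MpLEA-like13 was the single rise, at 75.8, 74.2 and 72.1 TPM against 31.3, 31.1 and 31.2 (1.22, SE 0.07).

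The abscisic acid list, whose hormone is known to induce such proteins, had 4 falls and 1 rise among 12 tested genes. For all genes the shares were 11.7% and 14.5%. MpCYP707A, which breaks the hormone down, was at 2.72, 2.64 and 2.78 TPM against 12.5, 15.3 and 15.3 (−2.04, SE 0.29). MpABI5B, a bZIP factor, fell by 1.56 and MpMFT by 1.66; MpABA1 and MpABA4, given above, make the pigments from which the hormone comes. MpNCED, for the committed cleavage step, differed by −0.88 and was not called. Of 19 protein phosphatases 2C of all kinds 2 fell, MpPP2C_F3 and MpPP2C_K2 (−1.17), or 10.5% called, under the 26.2% of all genes. A part of these 2 in abscisic acid signalling was not tested.

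Transcription factor families were called in unequal shares, against 26.2% of all genes. Of 13 WRKY genes, a family known from stress and defence, 5 fell and 0 rose (38.5% called). MpWRKY8 (Mp2g20960) was at 10.4, 12.6 and 10.1 TPM against 157.2, 135.0 and 134.1 (−3.57, SE 0.08), and MpWRKY14 fell by 2.92. ERF and AP2 factors had 3 falls and 0 rises of 22 (13.6% called), with MpERF18 at −2.75 beside MpERF10. NAC factors had 3 falls (MpNAC7 −2.05, MpNAC2 −1.90) and 1 rise (MpNAC6, 1.39) of 9 (44.4% called). Among 36 bHLH factors, called in 19.4%, 5 fell, led by MpBHLH40 (−2.47) and MpBHLH49 (−1.60), and 2 rose, MpBHLH30 and MpBHLH48 (both 1.28).

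The MYB family was called in 13.0%, under the background, and the GRAS family in 27.3%. Of 46 MYB genes 4 rose, with MpR2R3-MYB2 at 2.29 and Mp1R-MYB17 at 1.75, and 2 fell, MpR2R3-MYB9 (116.9, 116.1 and 123.1 TPM against 626.6, 631.3 and 598.8; −2.37, SE 0.06) and MpR2R3-MYB20 (−1.23). MpGRAS3 rose by 2.79 and MpGRAS5 by 2.56, and MpGRAS4 fell by 1.81, of 11 GRAS genes. Single calls came from 15 bZIP genes (MpABI5B) and 13 homeodomain genes (MpHD9, 1.03, which came to 0.97 and no call with TMM factors).

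Among other hormone lists, cytokinin had 4 falls and 0 rises of 11 genes, against 11.7% and 14.5% of all genes. The falls covered activation, breakdown, perception and feedback. MpLOG (Mp1g00270), which activates the hormone, was at 27.9, 23.9 and 25.9 TPM against 153.7, 137.6 and 157.6 (−2.48, SE 0.06). MpCKX1 (Mp5g03090), an oxidase that degrades it, was at 2.29, 3.84 and 3.11 TPM against 77.4, 69.3 and 74.9 (−4.21, SE 0.12). The receptor gene MpCHK2, at 12.6, 13.0 and 13.8 TPM against 56.0, 54.8 and 57.6, fell by 2.01 (SE 0.10). The type-A response regulator gene MpRRA was at 94.2, 100.2 and 102.3 TPM against 577.8, 533.3 and 547.0 (−2.47, SE 0.05). These last 2 were named after their values were seen.

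In the auxin list 13 of 37 tested genes fell and 5 rose, against 11.7% and 14.5% of all genes. The rises were thus near the share of all genes. The receptor gene MpTIR1 fell by 1.89 (83.8, 83.9 and 91.8 TPM against 342.3, 316.6 and 313.2), while the auxin response factor genes MpARF1 (−0.26), MpARF2 (−0.34) and MpARF3 (−0.42), the repressor gene MpIAA (−0.09) and the synthesis genes MpTAA (−0.10) and MpYUC2 (0.61) were not called. Efflux carrier genes went both ways, MpPIN1 by −1.53 and MpPIN4 by −1.84 against MpPIN2 by 1.23 and MpPIN3 by 1.03. MpGH3A, of the family that conjugates auxin to amino acids, rose from 30.2, 30.0 and 29.8 TPM to 150.3, 159.2 and 164.5 (2.36, SE 0.08). Of 13 tested SAUR genes, small auxin-related genes, 8 fell and MpSAUR4 alone rose, by 2.64. The SAUR falls are 8 of the 13 on the auxin list, and 5 of them, MpSAUR9 to MpSAUR13, are neighbours in the genome that may share reads, led by MpSAUR13 (−2.86). MpIAR4B fell by 3.47, to under 0.3 TPM in each light library from between 9.91 and 13.7.

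Gibberellin-related genes had 8 falls and 2 rises of 16, against 11.7% and 14.5% of all genes. Marchantia lacks the classical gibberellin receptor system, and these are genes of related synthesis steps and receptor-like (GID1L) proteins. MpKOL3 was at 14.7, 14.9 and 15.9 TPM against 1.53, 0.919 and 1.05 (2.91, SE 0.19), whereas MpKOL1 (−1.02), MpKOL2 (−1.05) and MpKAOL2 (−1.67) fell. MpGID1L6 fell by 2.13, and MpGID1L5 rose by 1.08 (0.99 without replicate 1 of darkness). MpDELLA differed by −0.10. Of 5 karrikin-type signalling genes MpMAX2 (−1.40) and MpSMXL (−1.38) fell. Of 17 oxylipin genes 3 fell (17.6% called, under the 26.2% of all genes), among them MpLOX5 (−1.56) and MpLOX1 (−1.55). In the ethylene list 0 of 11 genes passed the fold threshold, with values from −0.91 for MpEIN2 to 0.71 for MpCTR1. All 11 had a limma adjusted p under 0.05, as did 78.4% of all genes tested. Without replicate 3 of both groups 1 gene of the list was called.

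Transport, stress and kinase genes were called as follows, to be set against 26.2% of all genes. Ammonium, nitrate and peptide transporters were called in 48.3%, and amino acid and sugar transporters and aquaporins in 42.9% each. ABC transporters were called in 27.9%, near the share of all genes. Ammonium, nitrate and peptide transporters had 11 rises and 3 falls of 29, led by MpNPF31 (32.3, 28.7 and 27.3 TPM against 2.05, 3.23 and 2.18; 3.14, SE 0.13) and the ammonium transporter gene MpAMT1.4 (2.76); MpNPF14 fell by 1.89 and MpNPF19 by 1.41, and 5 falls were called with TMM factors. Of 7 amino acid and sugar transporters MpAAP5 rose by 1.29, and MpAAP1 fell by 1.15 beside MpSUT4. ABC transporters had 18 rises and 6 falls of 86, with MpABCG1 (2.69), MpABCG23 (2.26), MpABCG11 (−1.90) and MpABC53 (−1.87) at the ends. Aquaporins gave MpPIP1 (1.18), MpXIP (1.04) and MpNIP (−1.33) of 7; without replicate 2 of white light MpXIP came to 0.95 and without replicate 2 of darkness to 0.82, under the threshold.

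Of 30 tested genes for scavenging of reactive oxygen 10 rose and 4 fell (46.7% called). MpGPX2, a glutathione peroxidase gene, was at 77.5, 76.1 and 77.3 TPM against 15.0, 19.1 and 15.3 (2.17, SE 0.07), and the superoxide dismutase genes differed in direction, with MpSOD5 at 1.83 and MpSOD3 at −1.40. MpDHAR4 fell by 1.31. Among 5 HSP90 chaperone genes MpHSP90-2 (2.08), MpHSP90-4 (1.27) and MpHSP90-1 rose and MpHSP90-3 fell by 1.02 (−0.99 without replicate 1 of both groups). Of 21 autophagy genes only MpATG8a was called, or 4.8%, under the 26.2% of all genes. MpATG8a was at 133.2, 135.3 and 130.0 TPM against 280.3, 289.9 and 282.9 (−1.09, SE 0.04).

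Calls among kinases were spread over both directions. Genes of the MAP kinase cascade were called in 10.7%, under the 26.2% of all genes, and receptor-like kinases in 33.7%. MpMAPKKK18 rose by 3.60 (SE 0.12), from between 1.69 and 2.02 TPM to between 31.7 and 37.1, MpMAPKKK10 rose by 2.13 and MpMAPKKK2 fell by 1.91, of 28 genes of the MAP kinase cascade, where 2 falls were called with TMM factors or without replicate 3 of both groups. Receptor-like kinases had 16 rises and 12 falls of 83, from MpRLK-Pelle_WAK1 (2.46) and MpRLK-Pelle_WAK_LRK10L-8 (2.40) to MpRLK-Pelle_L-LEC26 (−1.92) and MpRLK-Pelle_L-LEC4 (−2.24). Pentatricopeptide repeat proteins, which process organelle RNA, had 10 rises and 2 falls of 71 (6 and 4 with TMM factors), or 16.9% called. Among them were MpPPR_73 at 2.09, MpPPR_41 at 1.69, MpPPR_12 at −1.38 and MpPPR_67 at −1.10. Of 10 cytoskeleton genes MpMYOSIN_XI-2 rose, by 1.5. Pathogenesis-related and cupin genes had 9 rises and 10 falls of 55 (34.5% called). These include the rises MpCupin3 (2.18) and MpCupin84 (2.09) and the falls MpCupin57 (−3.40) and MpCupin82 (−2.68).

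Called genes also lay side by side in the numbering of the genome, in runs with no tested gene between them that failed the rule. These runs were picked after the values were seen and are a description. The longest was of 10 rises without a symbol, Mp4g05960 to Mp4g06050, with changes of 2.13 to 5.99. Within it Mp4g06030 was at 1948.8, 1809.3 and 1946.9 TPM in light against 113.9, 112.8 and 110.4 (4.07, SE 0.07). Next came 9 rises, Mp7g06710 to Mp7g06790 (1.36 to 5.58), where Mp7g06790 was at 4144.9, 4299.1 and 4184.3 TPM against 544.5, 573.9 and 590.8 (2.88, SE 0.05). Among falls, 5 neighbouring genes were MpSAUR9 to MpSAUR13, between −2.86 and −1.67, and 6 were MpLEAL3, MpLEA-like34 to MpLEA-like37 and Mp6g03020, between −3.69 and −1.12. A run of 5 rises held MpPPO8, MpPPO9 and 3 peroxidase genes (1.48 to 3.61). Neighbouring copies can share reads, so values of single members are uncertain.

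Markers of cell types and organs form short lists, of 1 to 5 tested genes each. Oil body cells store terpenes and phenolics. Of their 5 markers MpABCG1, at 25.4, 21.4 and 25.5 TPM against 2.64, 2.65 and 3.36 (2.69, SE 0.13), MpR2R3-MYB2 (2.29) and MpSYP12B (1.25) rose, while MpC1HDZ (0.08) and MpERF13 (−0.09) were not called. The first plan for these markers held terpene synthase genes and did not hold MpR2R3-MYB2. Terpene synthases, given above, went both ways, with 5 rises and 3 falls of 15 tested. The part of a change in oil body cells in the terpene and phenolic lists was not tested. Of the rhizoid and gemma markers MpKAR rose by 1.35, and MpGCAM1 (0.34) and MpBHLH14 (0.33) were not called. Apical notch markers gave MpLOG as a fall and MpCLE2 at −0.97, MpERF20 at −0.51, MpHD6 at −0.31 and MpYUC2 at 0.61, none called; MpCLE2 became a call with TMM factors and with quantile normalization (both −1.03) and without replicate 1 of white light (−1.02). The air pore marker MpNOP1 was at −0.14. Of the tested archegonium and egg markers MpRKD, also known from gemma cup formation, rose by 1.08 (126.9, 122.9 and 132.2 TPM against 59.2, 59.2 and 60.4), and MpHD7 (−0.30) and MpR2R3-MYB1 (0.20) were not called. Of 5 listed antheridium and sperm markers 3 were tested. These, MpDUO1, MpMID and MpC2H2-3, lay at 0.479 to 4.45 TPM in the 6 libraries and were not called (−0.27, −0.18 and 0.03). Of the phase switch genes MpSPL2 fell by 1.11, with MpSPL1 at 0.19 and MpFKF at −0.93.

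Levels at time zero show where each condition had moved from. White light at 24 h differed from time zero in 3300 genes (25.3%), 2001 higher (15.3%) and 1299 lower (9.95%), and darkness at 24 h in 409 (3.13%), 159 higher (1.22%) and 250 lower (1.92%). With TMM factors, which remove a shift of the median of 0.145 and 0.10 on the log2 scale, the splits were 1489 to 1727 and 118 to 363. These comparisons share libraries with the main one and with each other, so they are set side by side as values only. MpPPO71 was at 58.2 ± 3.95 TPM at time zero (SD, n = 3), so its log2 change from there was 1.30 in light and −3.24 in darkness, both called. MpPPO17 gave 1.27 and −2.75, and MpPPO45 gave −2.77 in darkness, all called. Of the division genes, 7 of 26 histone genes and 5 of 23 cell cycle regulators were lower in darkness than at time zero. In darkness 1 and 0 of them were higher. In light 13 and 9 were higher than at time zero, and 0 and 1 lower. Of 20 replication genes 12 were higher in light, and 0 were called in darkness.

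Other genes were called against time zero in light and not in darkness. MpCYP704-like5 and MpCYP827A1 were within 0.32 of time zero in darkness and higher by 4.69 and 4.43 in light, with MpPKS/CHS17 at 3.37. MpDHN1 differed from time zero by −0.30 in darkness, not called, and by −5.66 in light; MpMLS5 (−6.44 in light) differed by −0.59 in darkness, not called. MpPP2C_F3 was lower on both sides, by −5.33 in light and −1.11 in darkness. Darkness alone was called for MpLTP-like65, at 18.5 ± 3.06 TPM at time zero and higher by 3.12 in darkness, and for MpGH19.8 (2.43), which differed by −0.22 from time zero in light. MpPR1o, a pathogenesis-related gene, was higher by 2.49 in darkness. MpPHY was at 137.7 ± 8.15 TPM at time zero and 338.2 ± 27.7 after 24 h more of darkness, a rise of 1.29 in darkness with 0.06 in light.

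The response at 24 h differed from that at 30 min in 3228 genes (24.7%), tested as the difference of the white-minus-dark differences; 1483 (11.4%) had a more positive value at 24 h and 1745 (13.4%) a more negative one, and 1763 and 1385 with TMM factors, the median being −0.16 without them. Among genes with a symbol, MpOMT8 gained 4.55, MpPPO71 4.49 and MpH3.1e 4.19 between those times. Of the genes with a symbol, MpMLS5 (−5.47), MpSUT4 (−5.31) and MpDIR39 (−5.17) moved furthest down. MpSUT4 had its highest mean at 60 min of light. In white light it was at 53.0 ± 2.12 TPM at 30 min, 111.1 ± 10.7 at 60 min, 33.5 ± 3.07 at 180 min and 1.59 ± 0.0876 at 12 h, while darkness held it at 42.0 ± 3.43, 35.4 ± 0.996, 38.9 ± 2.40 and 52.7 ± 3.14. MpCKX1 was already at 6.51 ± 1.18 TPM after 60 min of light against 33.0 ± 0.667, and MpFHY1 at 20.9 ± 2.04 against 46.1 ± 7.46.

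Between 12 and 24 h the response changed in 373 genes (2.86%), 250 of them (1.92%) toward a more positive value and 123 (0.942%) toward a more negative one. MpBBX1 (Mp5g05940), a B-box gene, had the largest gain among genes with a symbol, 2.71 (SE 0.10). It stood at 188.4 ± 5.55 TPM after 60 min of white light, 5.98 ± 0.858 at 12 h and 73.3 ± 2.86 at 24 h, against 37.9 ± 4.72 and 62.3 ± 2.08 in darkness at the last 2 times. At 24 h alone it was therefore not called (0.23). MpCYP813B1 was detected above 1 TPM in white light only at 12 h, with 14.6 ± 1.94 TPM, and was back at 0.143 ± 0.0492 at 24 h (−3.92, SE 0.20). MpUGT11 (−2.27) went from 55.4 ± 7.72 to 10.1 ± 0.848 TPM in light. MpGUN5 also dipped, with 645.1 ± 23.0 TPM at 180 min, 297.4 ± 2.78 at 12 h and 706.9 ± 43.5 at 24 h. MpOMT8 and MpPOD156 gained 1.96 each, and MpPPO52 changed by −2.02 at levels of 2.37 TPM or less.

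**Figure D4:**
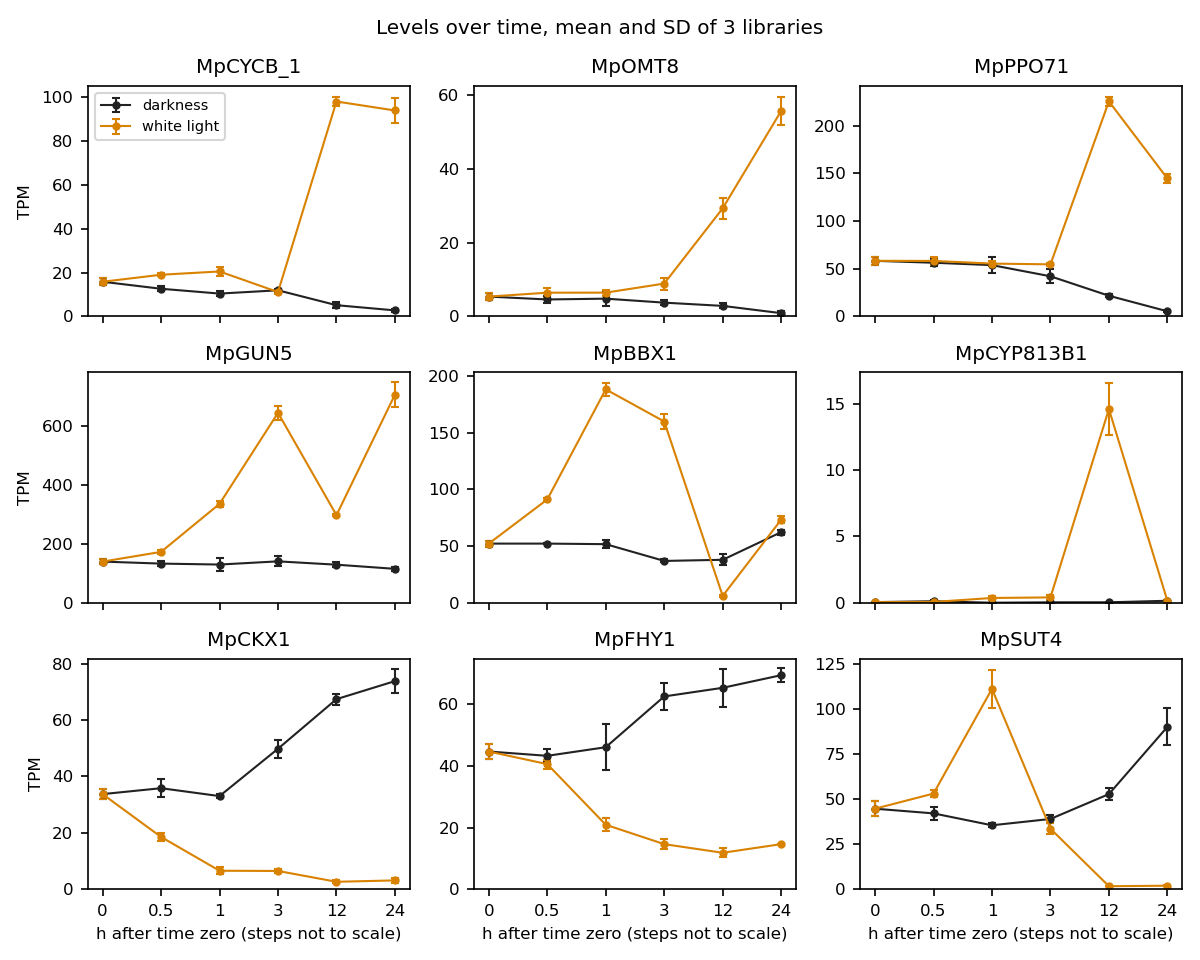
Mean TPM with SD over 3 libraries at time zero and after 0.5, 1, 3, 12 and 24 h of white light (orange) or darkness (black) for 9 genes; the time steps are not to scale. MpCYCB_1 and MpPPO71 part between 3 and 12 h, MpBBX1 and MpGUN5 dip at 12 h of light, MpCYP813B1 appears at 12 h alone, and MpSUT4 peaks at 1 h before it falls.

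At 24 h white light differed from red light in 117 genes (0.896%), 59 higher (0.452%) and 58 lower (0.444%). It differed from blue light in 249 (1.91%), 58 higher (0.444%) and 191 lower (1.46%), and from far-red light in 2272 (17.4%), 1134 higher (8.69%) and 1138 lower (8.72%), or 1277 and 944 with TMM factors. Per the labels each single colour was given at 4 times its share of the white light, so colour and intensity cannot be told apart. Genes with a symbol that were lower in white than in blue light were led by 3 that far-red light held high. MpDIR5 was at 27.9 ± 2.06 TPM in white, 201.5 ± 20.1 in blue and 218.5 ± 23.6 in darkness, and the difference of white from blue was −2.80 (SE 0.10). MpKOL1 stood at 14.4 ± 0.424 TPM in white against 95.4 ± 6.70 in blue light (−2.64), and MpCYP821A1, listed at 0 in the 3 white light libraries, was at 7.40 ± 2.45 TPM in blue. MpCYP704-like5, MpKOL3 and MpLEA-like18 were higher in white than in blue, by 1.59, 1.5 and 1.25.

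Differences from red light were fewer. MpLEAL1 was at 18.4 ± 11.5 TPM in white and 112.1 ± 14.2 in red light, near the 121.2 ± 17.8 of darkness (−2.69, SE 0.24). MpPOD166 (−2.10) and MpLEA-like14 (−2.0) were also lower in white light, and MpPOD167 (1.39), the kelch-repeat F-box gene MpKFB01_20 (1.38) and MpPPO42 (1.29) were higher. In far-red light MpCYP821A1 and MpOMT13 reached 96.3 ± 11.0 and 120.4 ± 14.2 TPM, and MpOMT13 (−6.51) and MpMLS5 (−6.57) were lower in white light. MpOMT8 (3.56), MpCupin84 (3.50) and MpFBA4 (3.33) were higher in white than in far-red light. Of the division genes, 0 of 20 replication genes, 2 of 26 histone genes and 4 of 23 cell cycle regulators were higher in white than in far-red light, and 0, 1 and 2 were lower. Over all genes tested 8.69% were higher and 8.72% lower. The median differences of the 3 lists were 0.31, 0.5 and 0.32, against −0.093 over all genes. MpLOG, down in white light, was at 700.6 ± 47.9 TPM in far-red light against 149.6 ± 10.6 in darkness.

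**Figure D5:**
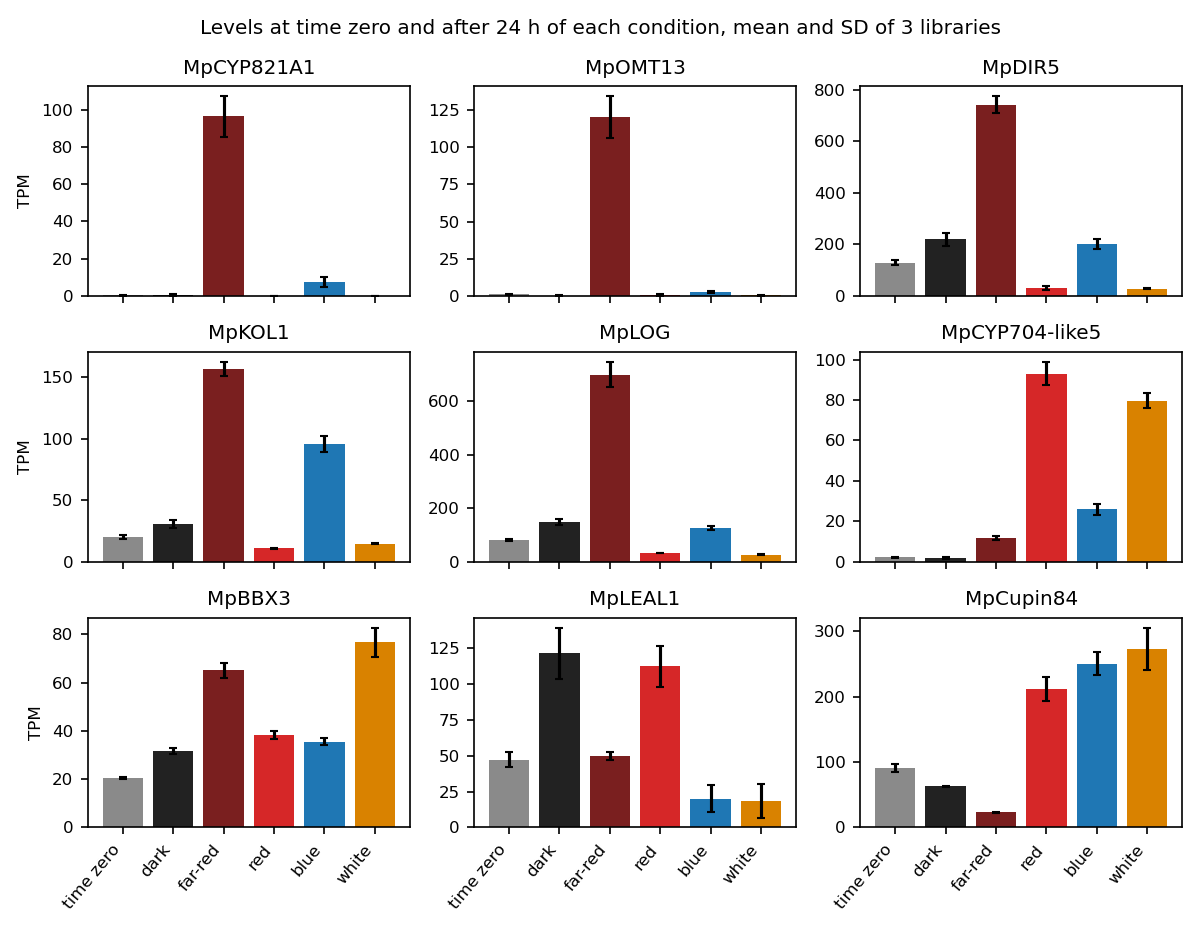
Mean TPM with SD over 3 libraries at time zero and after 24 h of darkness, far-red, red, blue or white light for 9 genes. MpCYP821A1, MpOMT13, MpDIR5, MpKOL1 and MpLOG peak in far-red light, MpCYP704-like5 is high in red and white light, MpLEAL1 is high in darkness and red light, and MpCupin84 is high in red, blue and white light.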

How the data were processed

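The data are poly(A) RNA-seq levels of 78 libraries in 26 groups of 3. The deposited values are TPM, which the authors scaled to 1000000 per library; the submitters' processing notes name STAR. No version, genome build, annotation or quantifier is stated by the labels, notes or file headers. A deposited table of group means equals the means of the replicates within 1e-06 and was not analysed separately. No count test was possible on TPM, and depth and counting error are unknown. TPM + 1 was log2 transformed and all 78 libraries were fitted with limma 3.58.1 in R 4.3.3 (1 mean per group, trend=TRUE), tested on simulated data, with Benjamini-Hochberg adjustment over 13054 genes. Changes of genes near 0 are understated on this scale. p-values measure the spread between 3 replicates of 1 plate.

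Identifiers were matched by number to a name table of assembly MpTak2_v7.1 (17384 of 19355 matched, 3091 with a symbol, 2508 of these tested). The data skip 61 numbers, 59 of them also skipped by the name table, against 5.7 by chance. The comparison, gene lists and markers were chosen with earlier results of these data known. Lists were built from symbols; names of doubtful meaning (ARFA to ARFC, CSD, CAF, CEN1) were taken out of 3 lists after their values were seen. Named genes are the 10 largest rises and falls with a symbol, the 5 largest gains and losses of TPM among called genes with a symbol, the 2 largest changes of any gene, up to 2 called genes per list and direction, every measured clock, chlorophyll and marker gene, and the 3 largest changes of each other comparison; further members are named to show what a list holds. Alternatives were other pseudocounts, filters, scalings, thresholds, priors, the replicate block and leaving out each replicate. A search for promoter motifs was not run, since no genome sequence was used here.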

Additional observations from a re-analysis of the deposited data

Results flagged for a closer look

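In the following genes the white-minus-dark difference at 24 h was not the same as at an earlier time, by a test of the difference itself in limma. Against 30 min, 3228 genes differed. Among genes with a symbol, the largest gains were those of MpOMT8 (4.55), MpPPO71 (4.49) and MpH3.1e (4.19). The largest losses among genes with a symbol were those of MpMLS5 (−5.47), MpSUT4 (−5.31) and MpDIR39 (−5.17), all on the log2 scale. Against 12 h, 373 genes differed. Among genes with a symbol, MpBBX1 gained 2.71, MpOMT8 1.96 and MpPOD156 1.96. The most negative values among genes with a symbol were those of MpCYP813B1 (−3.92), MpUGT11 (−2.27) and MpPPO52 (−2.02). MpPPO52 never passed 2.37 TPM in a dark or white light group mean, and its difference has an SE of 0.56 and a limma adjusted p of 0.0036. Groups of 3 are too small for a test of single stray libraries.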

How the results depend on the processing

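The count for white light against darkness lay between 3396 and 3452 with TMM factors (3430), quantile normalization (3396), no filter (3420), no trend (3421), a robust prior (3420), a fit of these groups alone (3429) and each replicate left out (3423 to 3452), and was 3151 with a filter of 5 TPM. Replicate numbers did not pair the samples (same-numbered deviations correlated at −0.093, 0.03 and −0.052), 1 of 3 white light libraries correlated best with its own number, and a replicate block gave 3423 calls. Under these settings the other 7 counts stayed within 1.5 times their value. Fold thresholds of 0.5 and 2 gave 7024 and 878 calls, 6845 and 778 for 24 h against 30 min, 1725 and 34 for 24 h against 12 h, 1359 and 33 against blue, 1329 and 8 against red, 5715 and 432 against far-red light, 7248 and 649 for light and 2598 and 38 for darkness against time zero. Pseudocounts of 0.1 and 5 gave 624 and 162 for 24 h against 12 h, 492 and 111 against blue, 308 and 46 against red, 813 and 190 for darkness against time zero, and 5 gave 1482 against far-red light; by their construction these settings act on low genes and on the fold. Signs turned only in uncalled genes: MpELF4 was at −0.05 (TMM), −0.04 (quantile) and −0.01 (without replicate 2 of white light, 1 of darkness, or 2 of both), MpC1HDZ at −0.01 without replicate 3 of white light, MpERF13 at 0.08 without replicate 3 of darkness, and MpC2H2-3 at −0.02 (TMM), −0.08 (quantile), −0.10 and −0.17 (without replicate 3 of white light or of darkness). With a replicate number left out of both groups MpC1HDZ ran from −0.04 to 0.16, MpERF13 from −0.23 to 0.04 and MpC2H2-3 from −0.31 to 0.21; the cause was not tested. Depth is unknown, so genes near 0 TPM carry no counting limit.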
